A study of Naumovozyma castellii with 14 samples.

Results

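The budding yeast Naumovozyma castellii was grown without Upf1 and then given cycloheximide, and its total RNA was compared with that of the same strain left untreated. Cycloheximide stalls ribosomes at the elongation step and stops protein synthesis, so mRNAs whose decay depends on translation are held on ribosomes. Upf1 is the RNA helicase of nonsense-mediated decay (NMD), which removes mRNAs whose translation ends too early. In S. cerevisiae the drug is known to stabilise many mRNAs and to leave amino acids unused. Decay by NMD needs both translation and Upf1, so cells without Upf1 show what the drug does when that route is already closed.

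The comparison rests on 6 of 14 strand-specific total RNA libraries: 2 of upf1 CHX and 4 of upf1. Both groups are strain YAM2890 (MATalpha ura3-1 ho upf1::kanMX6), grown in YPD at 25 °C to an OD600 of 0.5. The upf1 CHX cells received 100 µg/mL cycloheximide for 15 min. Another 2 libraries of WT CHX and 4 of WT, from strain YAM2478 (MATalpha ura3-1 ho) grown and treated in the same way, were used to ask where the response differed with Upf1. All of these groups share the ura3-1 and ho alleles. The labels do not say whether replicates were separate cultures, so p-values measure the spread between libraries. The limma model was fitted to all 14 libraries. Its p-values thus also use the spread within WT, WT CHX and 2 untreated dcr1 upf1 libraries. After dropping 259 repeated lines the deposited table held 8343 distinct features: 5599 mRNAs, 1279 CUTs, 965 XUTs, 146 SUTs, 302 tRNAs, 37 snoRNAs, 12 rRNAs and 3 snRNAs. CUTs (cryptic unstable transcripts), XUTs (Xrn1-sensitive unstable transcripts) and SUTs (stable unannotated transcripts) are non-coding classes, which in Saccharomyces cerevisiae are removed by the nuclear exosome, removed by the 5′ exonuclease Xrn1, or long-lived. Gene names and roles below are those of the S. cerevisiae gene of the same symbol.

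Values are densities, that is, reads per nucleotide after division by a size factor of the library. Recovered reads per library were 18994438 and 21111295 in upf1 CHX and ranged from 8022819 to 16411146 in upf1. The deletion was seen in every library, since NAM7, the gene for Upf1, had 0 reads in both upf1 CHX and all 4 upf1 libraries, against 1074 to 1601 reads in WT. STE3, the a-factor receptor of alpha cells, stood at 3.55 and 3.34 in upf1 CHX, and at 1.27, 1.21, 1.88 and 1.69 in upf1. The deposited size factors differed by at most 0.0315 (log2) from those of the 37 snoRNAs and by up to 0.899 from those of the mRNAs. A change under the deposited scaling is therefore a change relative to the snoRNAs, and most changes are given below also relative to the mRNAs. The spike-in RNA was not analysed here, so absolute amounts per cell were not measured, and a change in cells per library and one in RNA per cell cannot be told apart. The upf1 libraries fall into 2 pairs on this measure: the mRNA size factor over the deposited one was −0.298 and −0.309 (log2) in replicates 1 and 2, and 0.0197 and −0.0762 in replicates 3 and 4. The treated group has replicates 1 and 2 alone, at 0.891 and 0.734, and values from replicates 1 and 2 alone are given beside many of the results they move.

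Cycloheximide raised almost the whole mRNA population relative to the snoRNAs. Of 7518 features with a mean density of at least 0.02, limma with Benjamini-Hochberg adjustment at 0.05 called 6342 higher (84.4%) and 18 lower (0.239%) in upf1 CHX than in upf1. Of these, 2560 were at least 2-fold higher and 4 at least 2-fold lower. Among 5446 mRNAs tested, 4945 were higher (90.8%) and 6 lower (0.11%). The median mRNA rose by 0.86 (log2), with a 10th percentile of 0.39 and a 90th of 1.43, and replicates 1 and 2 alone gave 0.99. Relative to the mRNAs, the changes ran both ways: 1381 features were higher (18.4%) and 1900 lower (25.3%), of which 162 and 79 passed 2-fold. On this scale the counts among mRNAs were 1156 higher (21.2%) and 1634 lower (30.0%). Leaving out a treated library lowered the relative counts to 889 higher and 1316 lower (without upf1 CHX replicate 1) or to 868 and 1343 (without replicate 2). The count of lower features under the deposited scaling was 11 without upf1 CHX replicate 2 and 44 in replicates 1 and 2 alone.

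The median change differed among the classes. CUTs had a median of 0.72 under the deposited scaling with 585 of 852 higher and 5 lower. XUTs had one of 0.78 with 626 of 768 higher and 1 lower, beside 84.4% of all features higher. SUTs had a median of 0.46 with 52 of 117 higher. On the mRNA scale, 34 SUTs were lower and 5 higher, beside 25.3% and 18.4% of all features. Of 37 snoRNAs 30 were lower there with a median of −0.98 and 0 higher. The deposited size factors are close to those of the snoRNAs, so this restates the mRNA rise and is not a separate result. Median centring gave 50 SUTs lower and 3 higher, and quantile normalization left 14 snoRNAs lower with a median of −0.21. The 3 snRNAs and 3 of 12 rRNAs were lower with the mRNA size factors too, although RiboMinus depletion removed much of the rRNA. Of 7 mitochondrially encoded mRNAs tested, 0 were called under the deposited scaling and 3 were lower relative to the other mRNAs (median −0.68). Nuclear tRNAs ran with the mRNAs at a median of 0.84 (deposited), while mitochondrial tRNAs had a median of 0.35. Of 283 tRNAs of both kinds, 21 were higher and 14 lower relative to the mRNAs, beside 18.4% and 25.3% of all features. Replicates 1 and 2 alone gave 22 and 64 tRNAs. The lower tRNAs were 31 without upf1 replicate 3, and the counts were 10 higher and 3 lower without upf1 CHX replicate 1 and 8 and 7 without upf1 CHX replicate 2. The relative count of higher SUTs was 3 without either treated library.

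**Figure D1:**
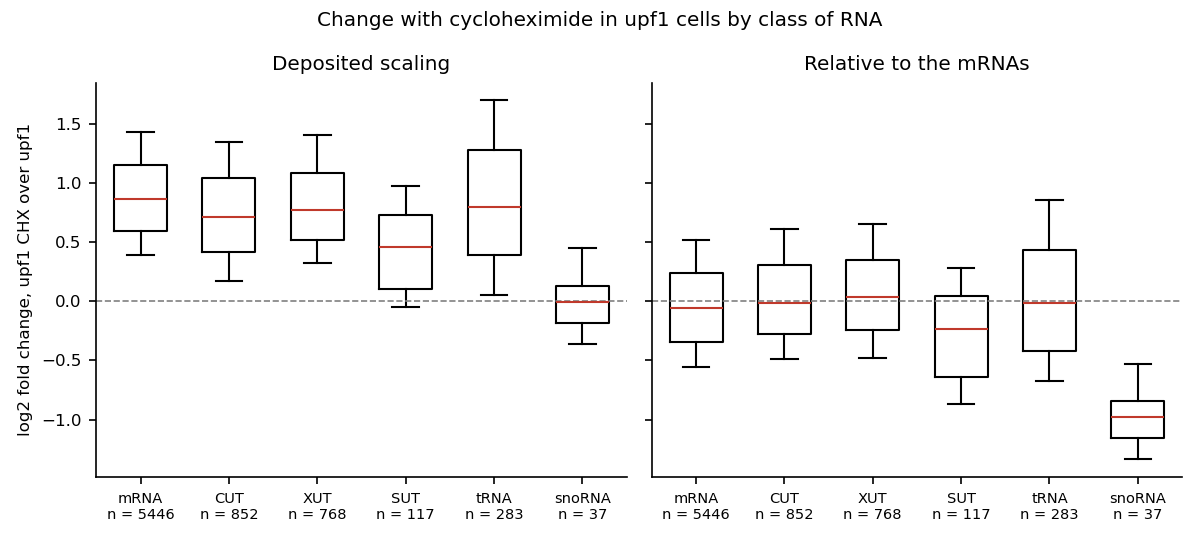
Log2 fold change of upf1 CHX over upf1 (vertical axis) by class of RNA, under the deposited scaling at left and relative to the mRNAs at right. Red lines are medians, boxes interquartile ranges and whiskers the 10th and 90th percentiles of features. Under the deposited scaling the mRNA, CUT and XUT boxes lie above 0 and the snoRNA box spans it, and relative to the mRNAs the snoRNA median is −0.98. The deposited size factors are close to those of the snoRNAs, so that scaling itself places the snoRNAs near 0.

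The read shares showed the same division of the libraries. Messenger RNA took 88.7% and 88.1% of the reads in upf1 CHX, against 83.4%, 83.5%, 84.5% and 84.4% in upf1. The snoRNAs took 4.35% and 4.72% in upf1 CHX, against 6.91%, 6.88%, 6.37% and 6.84% in upf1. SUTs took 4.6% ± 0.152 (SD, n = 2) in upf1 CHX and 6.41% ± 0.251 (SD, n = 4) in upf1. CUTs took 0.573% ± 0.00278 in upf1 CHX and 0.472% ± 0.0162 in upf1. For these 4 classes the groups did not overlap. The exact 2-sided permutation test gave p = 0.0667 for each, the smallest that its 15 splits allow, and 0.15 after adjustment over 9 shares. XUTs held 1.25% and 1.28% in upf1 CHX and 1.16% to 1.3% in upf1 (exact permutation p = 0.6), and those ranges overlap.

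The same 10 mRNAs had the largest rises under both scalings, with AGA2, AAT1, DIC1, SPO24 and PUT4 at the head. AGA2 (NCAS_0A01800, chromosome 1, 349127 to 349393, plus strand, in the coordinates of the deposited table; no source used here names the genome build) encodes the binding subunit of a-agglutinin, made by a cells. It had 270 and 377 reads in upf1 CHX (density 1.00 and 1.13), against 5, 1, 3 and 0 reads in upf1. The treated libraries thus lay far above a near-empty baseline. Its log2 fold change was 5.33 (SE 0.33, adjusted p 3.15e-08, limma) under the deposited scaling and 4.50 relative to the mRNAs. With so few untreated reads that value follows the constant added before the logarithm: it was 6.63 with 0.005 and 3.44 with 0.1, or 2.70 relative to the mRNAs, and with 0.1 AGA2 no longer came first on either scale.

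AAT1, the mitochondrial aspartate aminotransferase, had a density of 6.87 and 5.95 in upf1 CHX, against 0.305, 0.29, 0.377 and 0.352 in upf1. Each treated library was thus above every untreated one, with a log2 change of 4.20 (SE 0.14, adjusted p 1.48e-12, limma) and 3.23 relative to the mRNAs. DIC1, the carrier that exchanges dicarboxylates across the mitochondrial inner membrane, stood at 9.54 and 8.53 in upf1 CHX, and at 0.539, 0.544, 0.434 and 0.405 in upf1. It changed by 4.19 (deposited) and 3.22 (relative). The proline permease gene PUT4 had 8.19 and 7.36 in upf1 CHX, against 0.369, 0.388, 0.552 and 0.455 in upf1, a change of 4.09 and 3.13. DIP5, the permease for glutamate and aspartate, reached 19.1 and 16.8 in upf1 CHX, the highest level of the 10, against 1.02, 1.02, 1.74 and 1.67 in upf1, a change of 3.75 and 2.77. In all of these the upf1 CHX libraries agree closely and no untreated library comes near them.

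SPO24, which has a role in sporulation, stood at 8.54 and 7.54 in upf1 CHX, against 0.373, 0.434, 0.397 and 0.529 in upf1 (log2 4.16 deposited, 3.19 relative). PAR32, which holds back ammonium transporters in S. cerevisiae, stood at 4.14 and 3.93, against 0.288, 0.289, 0.426 and 0.369 in upf1 (3.50 and 2.54). ACS1, an acetyl-CoA synthetase, stood at 1.92 and 1.54, against 0.194, 0.192, 0.125 and 0.113 in upf1 (3.33 and 2.38). For ACS1 replicates 3 and 4 of upf1 lie below replicates 1 and 2, and all 4 lie below both treated libraries. The remaining 2 were NCAS_0A10640 (3.78 and 2.85) and DPI8 (3.27 and 2.30). All 10 stayed called in every alternative run.

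**Figure D2:**
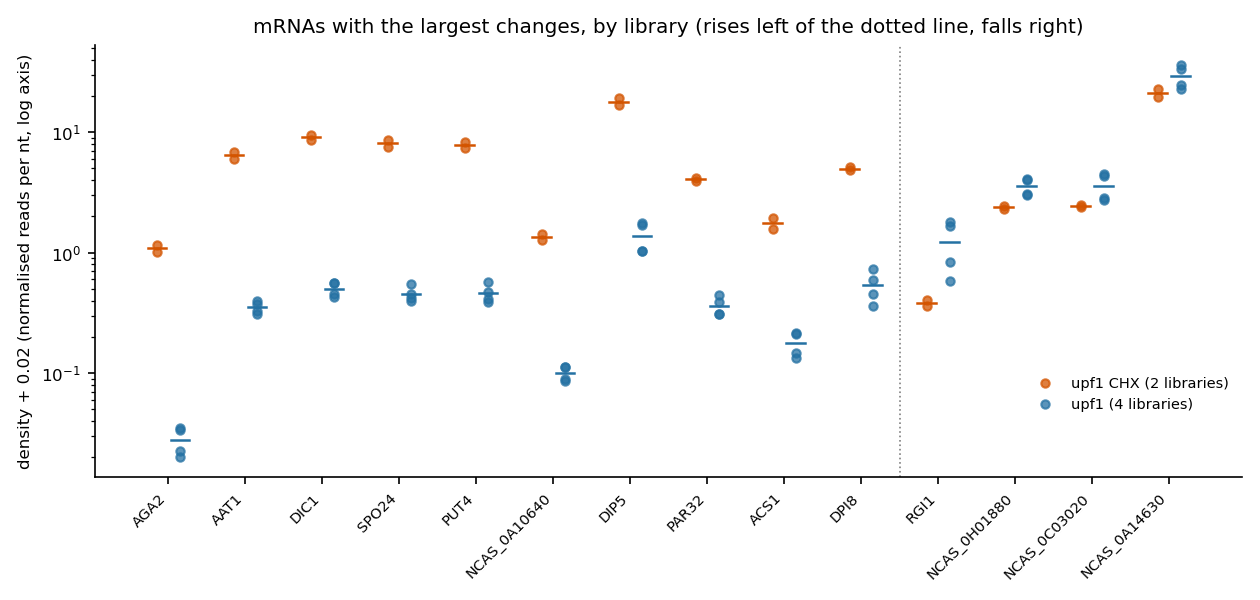
Density plus 0.02, in normalised reads per nucleotide on a log axis, of the 10 mRNAs with the largest rises and the 4 named falls, by library. Points are libraries and bars their means, with upf1 CHX in orange left of upf1 in blue. The treated points of the 10 rises lie above all untreated points, for example DIP5 at 19.1 and 16.8 against at most 1.74, and below them in the 4 falls.

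Falls under the deposited scaling were few and mostly small. The rule for named genes took 4 mRNAs. RGI1, which has a role in energy metabolism during respiratory growth, had a density of 0.384 and 0.34 in upf1 CHX, against 1.77, 1.65, 0.556 and 0.816 in upf1. Both treated libraries were below all untreated ones, and the untreated ones differed among themselves by more than 3-fold. Its log2 change was −1.52 (SE 0.40, adjusted p 0.0044, limma) and −2.44 relative to the mRNAs, and in replicates 1 and 2 alone −2.18 and −3.24. NCAS_0H01880 stood at 2.43 and 2.28 in upf1 CHX, against 3.05, 2.99, 4.06 and 4.02 in upf1, and fell by 0.56 (SE 0.16), or by 1.53 relative to the mRNAs.

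NCAS_0C03020 (−0.53) and NCAS_0A14630 (−0.44) lost their calls in some alternatives. For NCAS_0C03020 the adjusted p from limma was 0.0598 without upf1 replicate 3 (−0.41), 0.0611 without upf1 replicate 4 (−0.43), 0.0893 without upf1 CHX replicate 1 (−0.55) and 0.105 without upf1 CHX replicate 2 (−0.51). For NCAS_0A14630 it was 0.0548 without upf1 replicate 3 (−0.36), 0.0613 without upf1 replicate 4 (−0.33), 0.0614 in the compared groups alone and 0.184 without upf1 CHX replicate 2 (−0.32). In replicates 1 and 2 alone these genes changed by −0.20 (NCAS_0C03020) and −0.16 (NCAS_0A14630), neither called. Both stayed called relative to the mRNAs, at −1.50 and −1.41. The named falls on that scale also hold ATP8, a mitochondrially encoded ATP synthase subunit (−1.44), NCAS_0F04060 (−1.29), ARG1, the argininosuccinate synthetase (−1.17), and AFR1, which acts on the pheromone receptor (−1.16).

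Most genes of the translation machinery, as of all mRNAs, were higher relative to the snoRNAs. Relative to the mRNAs most were lower, a direction that the ribosomal protein genes did not keep under quantile normalization. Of 108 cytosolic ribosomal protein genes, 97 were higher and 0 lower under the deposited scaling, beside 90.8% of all mRNAs higher. Their median was 0.52 against 0.86 over all mRNAs. Relative to the mRNAs 90 were lower and 4 higher, beside 30.0% and 21.2% of all mRNAs (median −0.46, against −0.06 over all mRNAs). This turned under quantile normalization, with 9 lower, 14 higher and a median of 0.00. RPL17A, a large-subunit protein, stood at 19.7 and 18.2 in upf1 CHX, against 13.6, 13.6, 18.1 and 18.3 in upf1 (relative log2 change −0.71, SE 0.09). On the deposited scale its groups overlap. RPS9A was an exception, at 6.80 and 6.39 in upf1 CHX against 1.38, 1.43, 2.07 and 1.87 in upf1 (relative 1.00, SE 0.09). Ribosomal protein genes often have near-identical copies, and no source used here says how reads shared between copies were counted.

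Of the translation factor genes, 27 of 43 were lower and 2 higher relative to the mRNAs, beside 30.0% and 21.2% of all mRNAs. Their median was −0.40, and quantile normalization gave 10 lower and 5 higher. The 2 higher became 1 without upf1 replicate 1 or 2 or either upf1 CHX library. TEF2, the elongation factor that brings aminoacyl-tRNA to the ribosome, stood at 85 and 76.8 in upf1 CHX, against 62.1, 64, 71.2 and 78.1 in upf1 (relative −0.74, SE 0.06), and the groups overlap on the deposited scale. GCD10, a subunit of a tRNA methyltransferase, was higher at 0.84. Of 17 tRNA synthetase genes 15 were lower and 0 higher (median −0.44; 5 lower and 1 higher under quantile normalization). GUS1, the glutamyl-tRNA synthetase, was at −0.87, DPS1, the aspartyl one, at −0.74 and CDC60, the leucyl one, at −0.62.

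Few ribosome assembly genes were called with all libraries. Relative to the mRNAs 5 of 111 ribosome biogenesis genes were higher and 11 lower (median −0.06), beside 21.2% and 30.0% of all mRNAs. This list depends on which untreated libraries are used: replicates 1 and 2 alone gave 66 higher and 13 lower with a median of 0.25. Without upf1 replicate 3, 14 were higher, and without upf1 replicate 1, 17 were lower. The counts were 2 higher and 5 lower without upf1 CHX replicate 1, and 2 and 6 without upf1 CHX replicate 2. UTP6, of the small-subunit processome, stood at 1.46 and 1.37 in upf1 CHX, against 0.22, 0.235, 0.424 and 0.349 in upf1 (relative 1.23, SE 0.14). Both treated libraries lie above all untreated ones. RCL1, which acts in 18S rRNA processing, was at 0.77 and NOP10, of the H/ACA snoRNPs, at −0.75. Among 26 genes of RNA polymerases I and III, 9 were higher and 2 lower (5 and 1 without either treated library, 15 and 3 in replicates 1 and 2 alone), among them RRN11 of the polymerase I core factor at 1.22 and the polymerase III subunit RPC34 at 0.69.

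The mRNAs with the highest density in untreated wild type, a measure that no upf1 library enters, had the lowest relative change. The median relative change was 0.06, 0.10, 0.03, −0.11 and −0.40 over quintiles of the mRNAs with rising WT density. In the top quintile 703 of 1089 were lower (64.6%) and 84 higher. Over quintiles of rising gene length the medians were −0.26, −0.09, −0.01, 0.04 and −0.00, so the shortest quintile stood lowest, and level and length were not separated here. Quantile normalization, which turned or shrank the medians of the ribosomal protein, glycolysis and translation factor lists, sets the distribution of levels equal in all libraries.

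**Figure D3:**
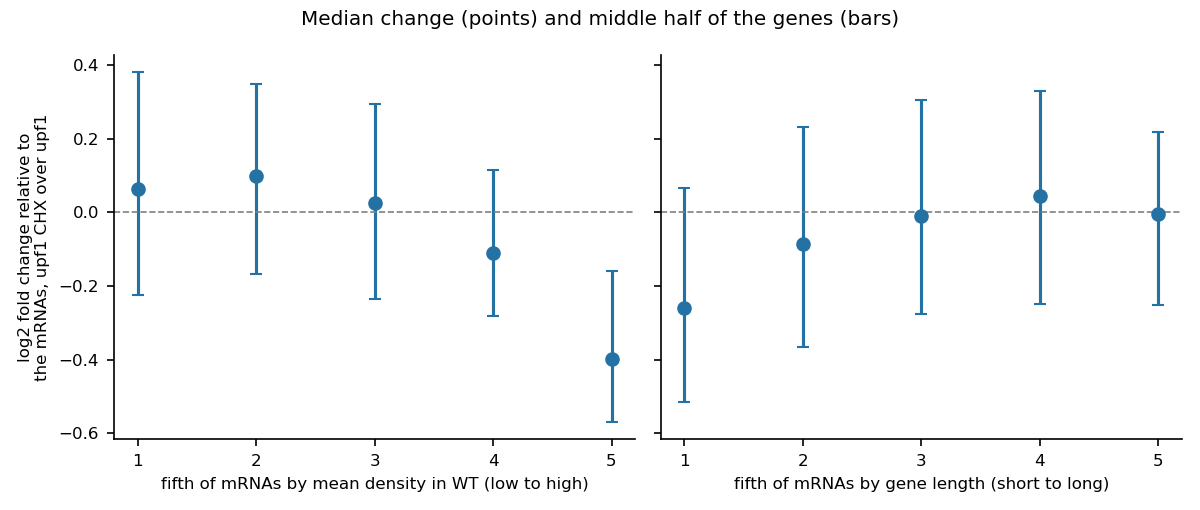
Log2 fold change of upf1 CHX over upf1 relative to the mRNAs, by quintile of the mRNAs in WT density at left and in gene length at right. Points are medians and bars the interquartile range. The median of the quintile with the highest WT density is −0.40, and the other 4 lie between −0.11 and 0.10.

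More amino acid permease genes were higher than lower relative to the mRNAs. Of 19 amino acid permease genes 10 were higher and 4 lower relative to the mRNAs (median 0.27), beside 21.2% and 30.0% of all mRNAs. Under the deposited scaling 18 were higher and 0 lower, beside 90.8% of all mRNAs higher. The count of lower ones was 0 without upf1 CHX replicate 1 and 1 without upf1 CHX replicate 2. After PUT4 and DIP5 came AGP2, a membrane protein that acts in the uptake of polyamines and carnitine, at 2.39 and 1.93 in upf1 CHX against 0.414, 0.389, 0.452 and 0.481 in upf1 (relative 1.30, SE 0.08). GNP1, the glutamine permease, had 6.65 and 5.73 in upf1 CHX against 1.38, 1.29, 1.87 and 1.72 in upf1 (relative 1.01, SE 0.07). In both genes the treated libraries lie above all untreated ones.

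Nitrogen catabolite genes, which are held down in S. cerevisiae on good nitrogen sources, split, with 9 of 26 higher and 9 lower. Over all mRNAs the shares on this scale were 21.2% higher and 30.0% lower. The higher ones were 4 without upf1 CHX replicate 1 and 5 without upf1 CHX replicate 2. ARO10, the decarboxylase of the aromatic amino acid route to fusel alcohols, stood at 0.958 and 0.832 in upf1 CHX, against 0.0949, 0.0909, 0.0921 and 0.0987 in upf1 (relative 2.07, SE 0.15). The arginase gene CAR1 was at 1.01 and the allantoinase gene DAL1 at −0.74. Of 60 amino acid biosynthesis genes 7 were higher and 18 lower, the latter near the share of all mRNAs. Replicates 1 and 2 alone gave 29 lower. The median was −0.03, or 0.13 with 15 higher and 8 lower under quantile normalization. AAT1 led this list, ILV5, of branched-chain synthesis, was at 0.68 and ARG1 at −1.17. Of 23 sulphur amino acid genes 3 were higher (5 without upf1 replicate 2) and 7 lower (median −0.22), with MET22, which clears the by-product of sulphate assimilation, at −0.65. Of 10 polyamine genes 4 were higher (2 without upf1 CHX replicate 1) and 1 lower, among them the exporter TPO1 at 0.92 and the antizyme gene OAZ1 at 0.61.

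Cell cycle and histone genes were more often higher than lower relative to the mRNAs. Of 27 cell cycle regulators 14 were higher and 1 lower relative to the mRNAs (median 0.29), beside 21.2% and 30.0% of all mRNAs. All 27 were higher under the deposited scaling, beside 90.8% of all mRNAs. CDC6, which licenses replication origins, stood at 1.32 and 1.23 in upf1 CHX, against 0.275, 0.259, 0.377 and 0.346 in upf1 (relative 1.02, SE 0.07). CDC5, the polo kinase of mitosis, was at 0.99, ASH1, a daughter-cell repressor with a localised mRNA, at 0.93 and the B-type cyclin gene CLB3 at 0.82. Of 9 histone genes 6 were higher and 1 lower (median 0.50). HHT1, for histone H3, stood at 40 and 37.2 in upf1 CHX, against 9.31, 9.33, 11.5 and 11.3 in upf1 (relative 0.92, SE 0.07). HHF1 (H4) was at 0.87, HTA1 (H2A) at 0.86 and HTB1 (H2B) at 0.80, all 4 with both treated libraries above all untreated ones. The 1 lower histone call was absent without either treated library, and 2 were lower without upf1 replicate 1. Histone genes have near-identical copies, between which the reads may have been divided.

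Iron genes were also more often higher, with 9 of 17 higher and 3 lower (median 0.27; 5 higher without upf1 CHX replicate 2). Over all mRNAs the shares on this scale were 21.2% higher and 30.0% lower. The heme oxygenase gene HMX1 stood at 5.01 and 4.95 in upf1 CHX, against 0.778, 0.82, 0.914 and 0.883 in upf1 (relative 1.56, SE 0.12). AFT2, an iron-responsive activator, was at 1.02 and ISU1, the iron-sulphur scaffold, at 0.97. The copper chaperone gene ATX1 was at −0.78. Ergosterol genes had 10 of 23 higher and 5 lower, among them ERG5, a sterol desaturase, at 0.68 and the sterol-responsive activator ECM22 at 0.50. Quantile normalization gave 17 ergosterol genes higher and 1 lower, with a median of 0.41 against 0.07. The lower ergosterol genes were 3 without upf1 replicate 2 or upf1 CHX replicate 2 and 2 without upf1 CHX replicate 1.

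Chaperone and proteasome genes had the lowest medians of the 30 lists with the mRNA size factors. Of 28 chaperone genes 21 were lower and 1 higher relative to the mRNAs (median −0.52), beside 30.0% and 21.2% of all mRNAs. Under the deposited scaling 16 were higher and 0 lower, beside 90.8% of all mRNAs higher. Quantile normalization left 14 chaperone genes lower and 0 higher (median −0.31). The single higher one was not called without upf1 replicate 3 or 4 or either upf1 CHX library. SSA2, a cytosolic Hsp70, stood at 44 and 39.1 in upf1 CHX, against 42.4, 41.1, 44.9 and 48.2 in upf1, and the groups overlap on the deposited scale (−0.09 deposited, −1.07 relative, SE 0.07). BTN2, which sequesters misfolded proteins, was at −1.07 and the Hsp110 gene SSE2 at −0.98. Of 36 proteasome genes 29 were lower and 0 higher (median −0.48), and quantile normalization left 24 lower and 0 higher (median −0.24). The core-particle genes PRE6, PRE7 and PRE10 were at −0.77, −0.74 and −0.70.

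Energy genes depended on the untreated libraries and on the scaling. Their counts stand beside 21.2% of all mRNAs higher and 30.0% lower relative to the mRNAs. Of 15 glycolysis genes 9 were lower and 0 higher relative to the mRNAs (median −0.47), with all 15 lower in replicates 1 and 2 alone, 5 lower without upf1 CHX replicate 2, and 2 higher and 0 lower under quantile normalization (median 0.02). Of 46 respiration genes 5 were higher and 8 lower, against 6 higher and 28 lower in replicates 1 and 2 alone, and 15 higher and 4 lower under quantile normalization (median 0.18, against −0.01). The lower ones were 14 without upf1 replicate 3 and 5 without upf1 CHX replicate 1. CIT2, the peroxisomal citrate synthase, stood at 4.57 and 3.92 in upf1 CHX, against 0.84, 0.783, 0.524 and 0.616 in upf1 (relative 1.64, SE 0.21), while RIP1, the Rieske protein, was at 0.78 and the ATP synthase subunit gene ATP17 at −0.77. Of 27 general stress genes 5 were higher and 7 lower, against 5 and 17 in replicates 1 and 2 alone; 3 were lower without upf1 replicate 1 or 2, and the counts were 1 and 1 without upf1 CHX replicate 1 and 2 and 2 without upf1 CHX replicate 2. Of 13 hexose transport and sensing genes 5 were higher and 4 lower, with the sensing factor STD1 at 0.53, the repressor MIG1 at 0.47 and its paralog MIG2 at −0.66. Of 13 phosphate genes 3 were higher and 1 lower, with the activator PHO2 at 0.63 and the vacuolar transporter PHO91 at 0.59. Of 24 meiosis and sporulation genes 5 were higher (2 without upf1 CHX replicate 2) and 7 lower, with DIT2, of the spore wall, at 0.89 and SPO22, of meiotic recombination, at −0.89.

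**Figure D4:**
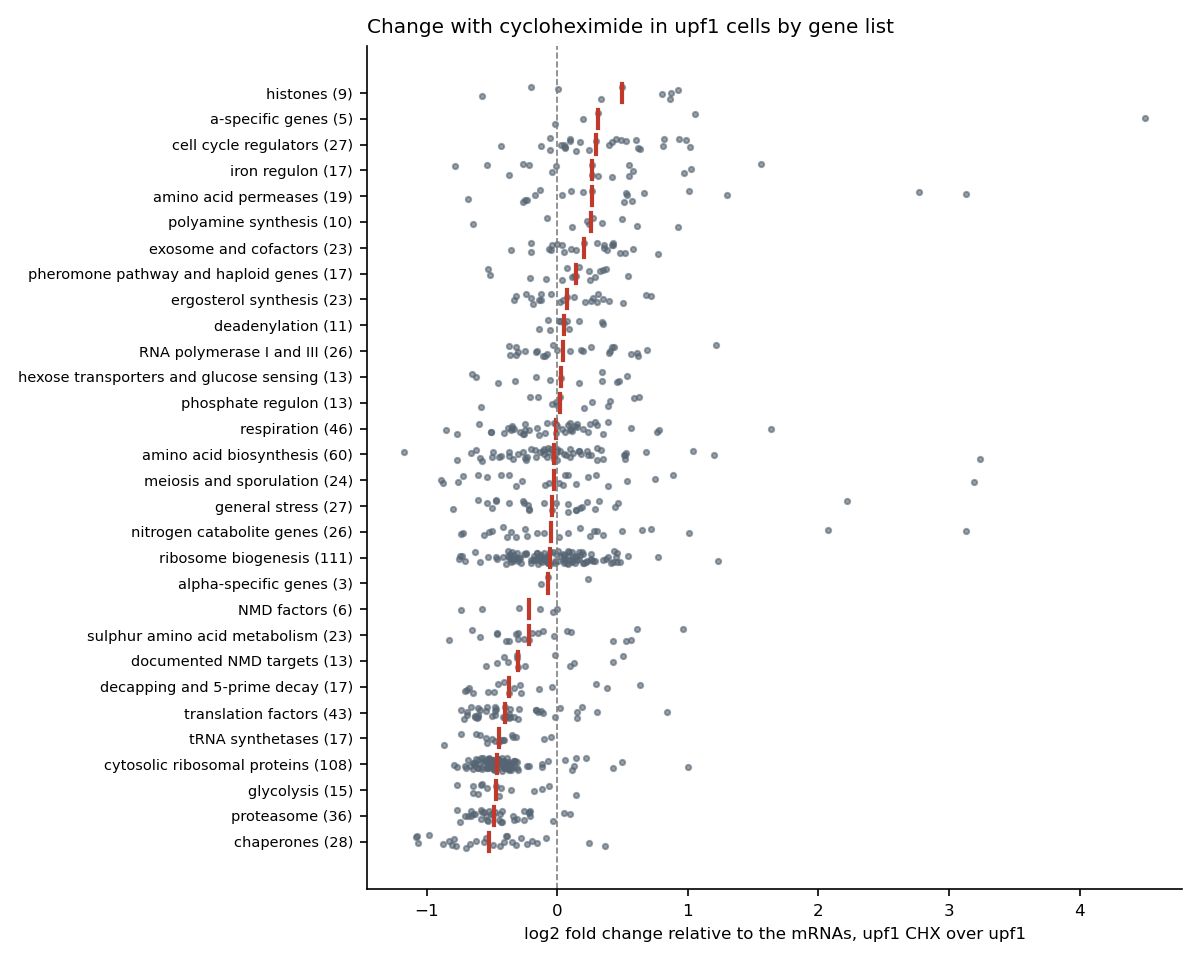
Log2 fold change of upf1 CHX over upf1 relative to the mRNAs (horizontal axis) for the genes of 30 lists, ordered by median. Each point is 1 gene, red bars are medians, and the number of genes tested is in brackets. Histones have the highest median at 0.50 and chaperones the lowest at −0.52, and PUT4 at 3.13 appears in 2 lists.

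RNA decay factors were not moved as a block. Their counts stand beside 21.2% of all mRNAs higher and 30.0% lower relative to the mRNAs. Of 17 genes for decapping and 5′ decay 3 were higher and 11 lower relative to the mRNAs (median −0.37; 7 lower without upf1 CHX replicate 1, and 5 lower under quantile normalization), with LSM6, of the Lsm ring that binds deadenylated mRNA, at −0.69. Of 23 exosome and cofactor genes 8 were higher and 1 lower, among them AIR1, of the TRAMP complex, at 0.77, the core subunit RRP42 at 0.52 and SKI7, which links the cytoplasmic exosome to the Ski complex, at 0.48. The higher ones were 5 without upf1 CHX replicate 1 and 4 without replicate 2, and 15 in replicates 1 and 2 alone. The lower one was not called without upf1 CHX replicate 2, and 2 were lower without upf1 replicate 1. Of 11 deadenylation genes 3 were higher (1 without either treated library) and 0 lower, with the deadenylase gene POP2 at 0.34.

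The list of mRNAs documented as NMD targets in S. cerevisiae holds 13 genes. All 13 were higher under the deposited scaling, beside 90.8% of all mRNAs. Their median was 0.67 against 0.86 over all mRNAs. On the mRNA scale 21.2% of all mRNAs were higher and 30.0% lower. Relative to the mRNAs 2 of the 13 were higher and 8 lower (median −0.30), with 5 lower without upf1 replicate 3 and 3 lower under quantile normalization. PPR1, the activator of the uracil pathway, stood at 0.482 and 0.415 in upf1 CHX, against 0.126, 0.135, 0.194 and 0.176 in upf1 (relative 0.50, SE 0.08). EST1, of telomerase, stood at 0.687 and 0.62 in upf1 CHX, against 0.397, 0.427, 0.575 and 0.477 in upf1 (relative −0.47, SE 0.08). Both treated libraries lie above the untreated ones for each gene under the deposited scaling. Among the NMD factors other than the deleted gene, NMD4, a partner of Upf1, was at −0.74 and the kinase gene HRR25 at −0.58.

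Of 5 a-specific genes tested in these MATalpha cells, 3 were higher relative to the mRNAs: AGA2, ASG7 and STE6. All 5 were higher under the deposited scaling, beside 90.8% of all mRNAs. ASG7 stood at 0.0742 and 0.0561 in upf1 CHX, against 0.00458, 0.00427, 0.00417 and 0.0152 in upf1, all low levels, and its relative change of 1.05 ran from 0.35 to 1.79 with an added constant of 0.1 and of 0.005. STE6, the a-factor exporter, stood at 0.796 and 0.685 in upf1 CHX, against 0.283, 0.258, 0.347 and 0.311 in upf1 (relative 0.31, SE 0.07). STE2, the alpha-factor receptor (−0.02), and BAR1, the protease that degrades alpha-factor (0.20), were not called on that scale. All 3 alpha-specific genes tested were higher under the deposited scaling and 0 were called relative to the mRNAs. Of 17 pheromone pathway and haploid genes 4 were higher and 2 lower, beside 21.2% and 30.0% of all mRNAs. SST2, which switches the pheromone G protein off, was at 0.54 and the end-joining gene NEJ1 at −0.52. The higher ones of these 17 were 1 without upf1 CHX replicate 1 and 2 without replicate 2, and 1 was lower without replicate 2.

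Non-coding RNAs held some of the steepest changes. CUT0315 and XUT0250 are 2 annotations of 1 transcribed stretch on chromosome 1 (2908995 to 2909525 and 2908991 to 2909606, plus strand) with no mRNA opposite, so they are not independent. CUT0315 stood at 6.34 and 5.56 in upf1 CHX, against 0.162, 0.164, 0.204 and 0.263 in upf1, a log2 change of 4.79 (SE 0.16, adjusted p 1.48e-12, limma) and 3.83 relative to the mRNAs. XUT0182 (chromosome 1, 2034617 to 2034924, minus strand) lies opposite FUR4, the uracil permease gene. It stood at 0.54 and 0.42 in upf1 CHX, against 0.00932, 0.00217, 0.00424 and 0.0155 in upf1, and its change of 4.18 (3.37 relative to the mRNAs) was 5.35 with an added constant of 0.005 and 2.42 with one of 0.1. The libraries of the 2 groups do not overlap for either transcript.

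The steepest falls were XUT0165 and the CUT0214 that overlaps it on the plus strand of chromosome 1 (1796696 to 1797102 and 1796705 to 1797573), of which CUT0214 lies opposite CHM7. XUT0165 stood at 0.177 and 0.212 in upf1 CHX, against 1.06, 1.12, 0.67 and 0.488 in upf1, and fell by 1.92 (SE 0.48, adjusted p 0.00361, limma), or by 2.80 relative to the mRNAs and by 3.39 in replicates 1 and 2 alone on that scale. CUT0214 fell by 1.76, or by 2.55 on the mRNA scale. CUT0750 (chromosome 4, 655576 to 655886, minus strand), opposite USE1, a SNARE gene, stood at 0.0796 and 0.116 in upf1 CHX, against 0.254, 0.211, 0.18 and 0.24 in upf1, and fell by 1.04 (SE 0.20), or by 1.83 on the mRNA scale. As classes, 87 CUTs were higher and 83 lower relative to the mRNAs (49 and 32 without upf1 CHX replicate 1, 39 and 32 without replicate 2), and 112 XUTs were higher and 99 lower (62 and 61, and 56 and 60). The classes hold 852 tested CUTs and 768 XUTs, and over all features 18.4% were higher and 25.3% lower on that scale. Median centring in place of the mRNA size factor gave 42 CUTs higher and 208 lower, and 66 XUTs higher and 182 lower.

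Wild-type cells given the same dose for the same time showed where the response differed with Upf1. WT CHX and WT share no library with the upf1 groups. Across 5446 mRNAs the relative changes in upf1 and in WT had a Pearson correlation of 0.743 (Spearman 0.704), a description across genes, which are not independent replicates. The correlation was 0.569 across 852 CUTs and 0.651 across 768 XUTs. The changes had an SD of 0.454 in upf1 and 0.540 in WT across mRNAs. The interaction term of the model, the response in upf1 minus the response in WT, was called larger for 39 features (0.519%) and smaller for 1009 (13.4%) relative to the mRNAs. Larger (or more) here means a positive difference and smaller (or less) a negative one. A fall that was deeper in upf1 than in WT thus counts as smaller, and a weaker fall as larger. For mRNAs alone, 35 were larger (0.643%) and 661 smaller (12.1%). Under the deposited scaling 1 was larger (0.0133%) and 1609 smaller (21.4%), with a median over all features of −0.40.

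These counts lean on single libraries and on the scaling. Leaving out upf1 CHX replicate 1, upf1 CHX replicate 2, WT CHX replicate 1 or WT CHX replicate 2 gave 16, 4, 10 and 10 larger, and 25 and 26 without upf1 or WT replicate 2. The deposited count of smaller responses was 733 without upf1 CHX replicate 2 and 861 without WT CHX replicate 2. Median centring, which moved the mRNA median of the difference by over 0.1, from −0.02 with the mRNA size factor to 0.14, gave 433 larger and 600 smaller. Replicates 1 and 2 alone gave 364 larger and 1496 smaller relative to the mRNAs, and 19 and 1998 under the deposited scaling.

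For CUTs and XUTs smaller responses outnumbered larger ones, as they did over all features. On the mRNA scale 13.4% of all features were called smaller and 0.519% larger, and 12.1% and 0.643% of the mRNAs. By the same test 125 of 852 CUTs, near that share, and 219 of 768 XUTs, above it, responded less in upf1 than in WT. In both classes 0 responded more, and the medians were −0.31 (CUTs) and −0.55 (XUTs) against −0.02 for mRNAs. Under median centring the smaller ones were 69 CUTs (21 larger, median 0.04) and 106 XUTs (6 larger, median −0.15), and under quantile normalization 56 (15 larger, median 0.01) and 97 (3 larger, median −0.20). The CUT median thus turned sign under both, and the XUT median did not. XUT0753 (chromosome 6, 757037 to 757711, minus strand) stood at 0.758 and 0.723 in upf1 CHX, against 0.439, 0.422, 0.636 and 0.567 in upf1. Its difference of responses was −2.004 on the log2 scale (adjusted p 7.9e-06, limma).

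**Figure D5:**
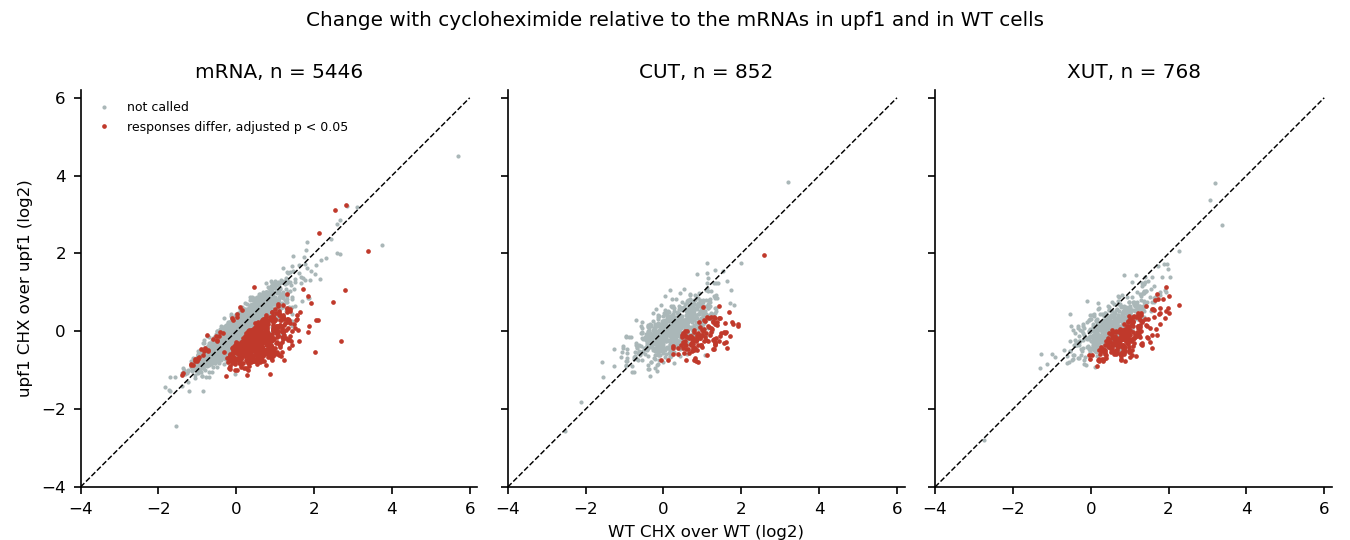
Log2 fold change relative to the mRNAs of upf1 CHX over upf1 (vertical axis) against that of WT CHX over WT (horizontal axis), for mRNAs, CUTs and XUTs. Each point is 1 feature, red where the 2 responses differ at an adjusted p under 0.05 in limma, and the dashed line marks equal responses. Most red points lie below the line, 661 of the mRNAs against 35 above it.

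Among mRNAs, those with the largest shortfall in upf1 were NCAS_0G02180, RMD6, MAK31, BIO2 and NCAS_0A04130. RMD6, needed for sporulation, stood at 5.88 and 5.36 in upf1 CHX, against 3.45, 3.37, 5.16 and 4.90 in upf1, and at 2.23 and 2.23 in WT CHX, against 0.191, 0.162, 0.245 and 0.216 in WT. The drug thus separated the groups by far more in WT than in upf1, where the untreated level was already above that of WT CHX. The difference of responses was −2.56 (SE 0.18, adjusted p 2.25e-06, limma). MAK31, of the NatC N-terminal acetyltransferase, stood at 3.73 and 3.34 in upf1 CHX, against 2.54, 2.68, 3.62 and 3.20 in upf1, and at 1.42 and 1.40 in WT CHX, against 0.244, 0.201, 0.234 and 0.222 in WT (−1.96, SE 0.10). The differences were −2.93 for NCAS_0G02180, −1.88 for BIO2, the biotin synthase, and −1.81 for NCAS_0A04130.

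Members of several lists also had a negative difference, beside 12.1% of all mRNAs. For 9 of the 13 documented NMD targets the difference was called negative and for 0 positive (median −0.68). The negative ones were 7 under median centring and 6 under quantile normalization. EST1, at 0.38 and 0.346 in WT CHX against 0.0893, 0.0685, 0.0679 and 0.0761 in WT, had a difference of −1.26 (SE 0.11). PPR1 had one of 0.07, which was not called. Of the 5 a-specific genes 4 responded less: STE2 (−1.86), ASG7 (−1.73), BAR1 (−1.30) and STE6 (−1.24), and AGA2 (−1.21, SE 0.52, adjusted p 0.175) was not called. These low genes depend on the settings. For AGA2 the difference was called in limma with an added constant of 0.1 (−1.59, adjusted p 0.000131), in replicates 1 and 2 alone (−1.73, adjusted p 0.0219) and without WT replicate 4 (−1.49, adjusted p 0.0384), and it was −0.28 with voom. For ASG7 it was −0.85 with a constant of 0.1, −2.49 with 0.005 and −3.20 with voom, and for STE2 −1.25 with 0.1. STE2 stood at 0.429 and 0.381 in upf1 CHX, against 0.194, 0.192, 0.218 and 0.233 in upf1, and at 0.56 and 0.521 in WT CHX, against 0.0412, 0.0367, 0.0466 and 0.0737 in WT. Of 26 nitrogen catabolite genes 12 had a negative difference and 1 a positive one, with ARO10 at −1.32 and DAL1 at −1.14. Of 24 meiosis genes 9 were negative and 0 positive, with SPO22 at −1.21. DAL1 and SPO22 fell relative to the mRNAs in upf1, so their differences are not weaker rises. Negative differences were also called for HRR25 (−1.10), AFR1 (−0.90), NMD4 (−0.74) and NEJ1 (−0.69), which likewise fell relative to the mRNAs in upf1. Of 108 ribosomal protein genes 0 were called either way. Positive differences were called for 54 under median centring, and for 31 (with 1 negative) in replicates 1 and 2 alone. Their median change relative to the mRNAs was −0.46 in upf1 and −0.69 in WT. For the list a positive difference thus means a weaker fall in upf1, not a larger response.

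Positive differences were fewer and smaller in size. AAT1 had a difference of 0.41 (SE 0.07, adjusted p 0.00166, limma), CYS3, the cystathionine gamma-lyase, one of 0.44 (SE 0.09) and the proteasome gene PRE10 one of 0.35. CYS3 and PRE10 fell relative to the mRNAs in upf1, so their positive differences mark a weaker fall than in WT. AAT1 stood at 6.07 and 6.53 in WT CHX, against 0.368, 0.291, 0.314 and 0.361 in WT, which is close to its levels in the upf1 groups, and its difference under the deposited scaling was 0.03 (adjusted p 0.888). FYV4 (0.66) and PUT4 (0.58) were called, but FYV4 reached only adjusted p 0.0814, 0.0555 and 0.114 in limma without WT CHX replicate 1, WT CHX replicate 2 or upf1 CHX replicate 2. PUT4 reached 0.0566, 0.0530 and 0.0552 without WT CHX replicate 1, upf1 CHX replicate 1 or upf1 CHX replicate 2. PAR32 (0.40) reached 0.0904, 0.0616 and 0.117 without WT CHX replicate 1, WT CHX replicate 2 or upf1 CHX replicate 2.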

How the data were processed

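Strand-specific libraries of total RNA were made with a TruSeq stranded kit after RiboMinus depletion, per the labels' protocols. The authors deposited 1 table of normalised read densities (a signal, reads per nucleotide over a library size factor). Per the submitters' processing notes, the tools were HISAT2 2.2.0 and featureCounts 2.0.0, beside Trim Galore and DESeq2 without a version; their settings are not stated there. No source used here gives the genome build, the annotation or the treatment of multi-mapped reads. In every library 100% of the deposited values times the feature length were whole multiples of 1 step within 0.001 reads, which gave the reads per library (7895089 to 22437334 over 14 libraries). Lengths span introns. Of 5599 mRNAs 5588 were found in the RefSeq table of gene names and 4484 had a symbol.

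Tests used limma 3.58.1 (R 4.3.3, trend and robust eBayes) on log2(density + 0.02), with 5 group means (upf1 CHX, upf1, WT CHX, WT and 2 libraries of dcr1 upf1) over 14 libraries (9 residual degrees of freedom), and features with a mean density of at least 0.02. A fold change on this scale understates that of low features. Changes relative to the mRNAs used median-of-ratios size factors over the mRNAs. Means, shares and permutation tests were computed in Python (pandas, scipy). Alternatives were 0.005 and 0.1 as the added constant, other filters, the compared groups alone, a replicate block, replicates 1 and 2 alone, each library left out, median centring and quantile normalization, with voom on the recovered reads added after the data were seen. Data for upf1 CHX against upf1 were simulated with 200 of 7518 features changed, a dispersion of 0.02 and no common shift. The share recovered was 22.4% at 1.5-fold, 71.6% at 2-fold and 97% at 4-fold, with 9 false calls.

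All features that the rule names were called. In each direction it takes 10 mRNAs and 3 non-coding features by size of change. These did not overlap between upf1 CHX and upf1 libraries and reached their class median in the higher group. For the interaction it takes 5 and 3 that reached their class median over 4 groups, whether or not libraries overlap. It adds at most 4 called genes from a list, with no condition on overlap or level. The text names part of these, leaving out several whose calls were lost in alternatives. STE2, BAR1 and STE3 are markers. The members, lists and rule were chosen with earlier results of these data known. Replicates 1 and 2 of the groups did not deviate together (correlation 0.0505 over 7518 features), so numbers were not taken as pairs.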

Additional observations from a re-analysis of the deposited data

Results flagged for a closer look

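In 24 of 98 named features the change with cycloheximide differed between upf1 and WT by the interaction term (limma, adjusted p under 0.05, relative to the mRNAs). Some of the 98 were named because this term was called for them, so that share cannot be read against all features. Over all 7518 features 39 were larger (0.519%) and 1009 smaller (13.4%). Among the 24 the difference, upf1 minus WT on the log2 scale, was positive in AAT1 (0.41), PUT4 (0.584), PAR32 (0.40), PRE10 (0.35), FYV4 (0.656) and CYS3 (0.443). It was negative in AFR1 (−0.902), ASG7 (−1.73), STE6 (−1.24), STE2 (−1.86), BAR1 (−1.30), NEJ1 (−0.689), NMD4 (−0.744), HRR25 (−1.10), EST1 (−1.26), ARO10 (−1.32), DAL1 (−1.14) and SPO22 (−1.21). It was also negative in NCAS_0G02180 (−2.93), RMD6 (−2.56), MAK31 (−1.96), BIO2 (−1.88), NCAS_0A04130 (−1.81) and XUT0753 (−2.004).

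In 5 of 107 sets of 4 upf1 values examined, 1 library lay far from the other 3, and chance gives about 1 in 20. In upf1 replicate 3 the density of PRE7 was 2.56 (the others 2.05 to 2.10) and that of AFT2 0.115 (the others 0.0927 to 0.0942). The same library had 0.496% of its reads in CUTs (the others 0.463% to 0.465%) and 6.38% in snoRNAs (the others 6.84% to 6.92%). In upf1 replicate 4 the density of ASG7 was 0.0152 (the others 0.00417 to 0.00458).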

How the results depend on the processing

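Under the deposited scaling 6044 to 6865 features were higher in upf1 CHX over the alternatives other than a stricter filter and those that leave out a treated library. Lower features were 11 with a filter at 0.2, 31 with the replicate block and 44 in replicates 1 and 2 alone. A paired analysis by the block gave 1625 higher and 2262 lower relative to the mRNAs. Leaving out 1 library gave 5106 to 6502 higher and 11 to 19 lower, and relative to the mRNAs 868 to 1391 higher and 1316 to 1991 lower. The median mRNA change was 0.79 to 0.94. Larger responses in upf1 than in WT (deposited) were 6 with a constant of 0.1 or no filter, 0 with the filter at 0.2, the compared groups alone or voom, 9 with the block, 19 in replicates 1 and 2 alone and 0 to 3 with 1 library left out. Smaller ones were 1001 with the filter, 2419 with the block and 733 to 1879 with 1 library left out. Relative to the mRNAs, larger responses were 21 in the compared groups alone, 224 with the block, 364 in replicates 1 and 2 alone, 433 with median centring, 105 with quantile normalization and 4 to 49 with 1 library left out. Smaller ones were 640 with the filter, 600 with median centring, 525 with quantile normalization and 696 to 1018 with 1 library left out. The tRNA read share turned to −0.0198 percentage points in replicates 1 and 2 alone and spanned −0.00981 to 0.01 with 1 library left out. NCAS_0C03020 (deposited) was not called with the block (−0.25, adjusted p 0.0674, limma). NCAS_0G02180 turned to 0.0528 relative to the mRNAs under quantile normalization. The cause of these shifts was not tested. Of 95 named features called relative to the mRNAs 90 stayed called in every alternative and 1 turned direction, and 20 of the 24 named differences of response stayed called. The text leaves out several features whose calls were lost in alternatives, so these counts of named features cannot show how stable calls are in general. The planned count model (edgeR) was not run, since the deposited unit is a density. With 2 treated libraries and 8022819 reads in the shallowest upf1 library, small changes may have been missed. The simulation recovered 22.4% of 1.5-fold changes between upf1 CHX and upf1. It changed 200 of 7518 features and held no common shift, so it does not measure the power of this comparison.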
